A study of Mus musculus with 2 samples.

Results

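Transitional B cells are B cells that have newly left the bone marrow and finish their maturation in the spleen. They were picked in 2 droplet libraries of mouse spleen by unique molecular identifiers (UMIs), each standing for 1 captured transcript. A barcode was a B cell when it held at least 1000 UMIs, at most 10% mitochondrial UMIs, a sum of at least 3 UMIs of Cd79a, Cd79b and Ms4a1, and no UMI of Cd3d, Cd3e or Cd3g. A B cell was a member when Cd93, Akap12, Sox4 and Cecr2 summed to at least 2 UMIs (the transitional sum) and the marginal zone genes Myof, S1pr3, Fcrl5, Tm6sf1 and Cd9 summed to at most 1. The rule found 228 members in the library ALLO and 272 in the library SYN, 500 of 13693 B cells and of 28962 barcodes in all.

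ALLO came from wild-type C57BL/6 recipients that were grafted with tail skin of C57BL/6-Tg(HLAA2.1)1Enge/J donors, a strain that carries a human HLA-A2 transgene, at weeks 0 and 5. SYN came from wild-type C57BL/6 recipients grafted by the same procedure with wild-type C57BL/6 skin, so every recipient had been grafted. Spleens were taken 4 weeks after the second graft, frozen, thawed and passed over a dead-cell column, and the series concerns the Th17 pathway and antibodies to HLA. Each group was 1 library, the labels do not say how many animals it held, and recipient age was not given in the sources used here. There is therefore no replicate check and no test below: each interval is an exact 95% interval for counting error only, and any difference between ALLO and SYN cannot be told apart from a difference between 2 animals or 2 preparations.

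A newly arrived B cell carries surface IgM, CD93 and much CD24, and lacks CD23 (the low-affinity IgE receptor, gene Fcer2a) at its earliest splenic stage. It then gains CD21 (gene Cr2), CD23 and IgD, and enters the follicles or, under Notch2 signals, the marginal zone. Many cells die on the way: strong antigen receptor signals delete or silence self-reactive cells, and the cytokine BAFF keeps others alive.

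The ALLO library held 39476214 UMIs in 11185 barcodes and the SYN library 45435231 UMIs in 17777 barcodes. The members held 976421 UMIs in ALLO and 1039230 in SYN, with a median of 3529 and 3469.5 UMIs per cell. The comparison group, called other B cells here, met the same B cell limits and had a transitional sum of 0: 5900 cells in ALLO and 5664 in SYN, with medians of 3138 and 2966 UMIs. Members were therefore the deeper cells. Their median share of mitochondrial UMIs was 2.01% and 1.92%, against 1.99% and 1.87% in other B cells. The libraries shared 264 barcode sequences, of which 6 ALLO members and 4 SYN members carried one.

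The 4 genes of the transitional sum are given as a description, since they chose the cells. Akap12, a scaffold protein for protein kinase A (chr10:4266380-4359470, plus strand, GRCm38), gave the most UMIs: 222 in ALLO, in 55.3% of members, and 239 in SYN, in 52.2%. Cecr2, a bromodomain chromatin factor (chr6:120666369-120771190, plus strand), was seen in 53.9% and 52.9% of members, and Sox4, a transcription factor of lymphoid progenitors (chr13:28948919-28953713, minus strand), in 39.0% and 40.8%. Cd93, the surface protein by which transitional cells are usually sorted (chr2:148436640-148443563, minus strand), gave 68 UMIs in 52 ALLO members and 62 UMIs in 50 SYN members, so most members had none. In 38.2% of ALLO and 44.5% of SYN members the whole sum came from 1 of the 4 genes. Only 2 cells in each library held UMIs of all 4, and the pair Akap12 and Cecr2 was the most common, in 39 ALLO and 47 SYN cells.

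Just inside the threshold, 143 ALLO and 177 SYN members had a sum of exactly 2. Just outside it lay 661 and 668 B cells with a sum of 1, which are 9.54% and 9.88% of the B cells. A further 45 ALLO and 53 SYN cells met the transitional sum and exceeded the marginal zone limit. Genes outside the rule differed between cells on the same side of the threshold too. Vpreb3, which pairs with the mu heavy chain inside immature B cells, was at 223, 292, 380 and 505 UMIs per 1000000 UMIs of the cell group (CPM) in ALLO cells with a sum of 0, 1, 2 and 3, and at 312, 381, 531 and 461 CPM in SYN. H2-Aa, a chain of MHC class II, went the other way, from 6464 to 5726, 5237 and 4087 CPM in ALLO and from 6159 to 5444, 4633 and 3883 CPM in SYN. Cells at 0 in this series were limited by the marginal zone sum too.

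**Figure D1:**
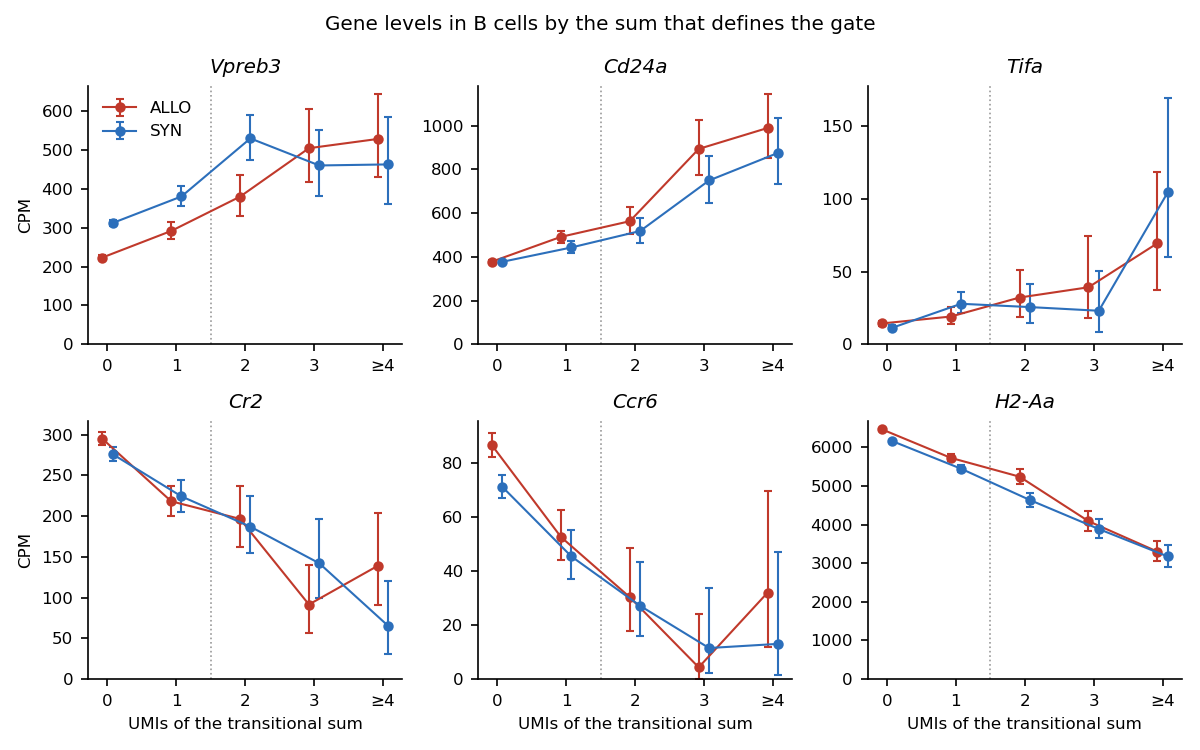
Level of genes outside the rule (CPM of summed UMIs on the y axis, with exact 95% Poisson intervals) in B cells grouped by the transitional sum on the x axis, with ALLO in red, SYN in blue and a dotted line at the threshold. Cd24a climbs from 378 CPM at a sum of 0 to 989 CPM at a sum of at least 4 in ALLO, and Cr2 drops from 276 to 65.3 CPM in SYN.

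Promoter sequences are shown for Vpreb3 (chr10:75943057-75949657, plus strand) and Cr2 (chr1:195136811-195176716, minus strand), the gene of the immature state and the gene of the mature state on which the comparison below turns. Both are RefSeq windows of build GRCm38.p6, 250 bases before to 50 after the start, written 5′ to 3′ on the strand of the gene. Cr2 lies at chr1:195176670-195176969 and Vpreb3 at chr10:75948050-75948349, and the RefSeq start of Vpreb3 lies inside the GENCODE span of the gene. Capitals mark every match to 11 patterns searched on both strands.

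Vpreb3: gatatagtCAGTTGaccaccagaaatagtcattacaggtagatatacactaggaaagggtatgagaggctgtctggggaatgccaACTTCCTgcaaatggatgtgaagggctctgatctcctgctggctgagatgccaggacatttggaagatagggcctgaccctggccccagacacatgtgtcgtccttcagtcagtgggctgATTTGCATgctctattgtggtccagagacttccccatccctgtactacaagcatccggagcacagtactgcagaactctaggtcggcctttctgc

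Cr2: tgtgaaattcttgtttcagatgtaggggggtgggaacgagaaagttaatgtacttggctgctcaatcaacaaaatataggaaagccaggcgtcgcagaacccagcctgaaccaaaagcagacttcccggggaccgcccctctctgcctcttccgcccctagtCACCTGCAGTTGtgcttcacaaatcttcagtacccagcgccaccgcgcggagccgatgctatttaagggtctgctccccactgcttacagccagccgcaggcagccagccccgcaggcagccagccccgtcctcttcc

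The patterns were the octamer ATGCAAAT, the ETS core AGGAAGT and its longer form GAGGAAGT, the E boxes CAGGTG and CAGCTG, the EBF core CCCNNGGG and a longer EBF form, MYB (CAACGG or TAACGG, also with the ending CTG), LEF (CTTTGNN with A or T as the last letters), NF-kB, and CRE TGACGTCA. They were chosen after results of these data were known. Each longer form contains its core. The Vpreb3 window matched the MYB form at bases 9 to 14, the ETS core at 86 to 92 and the octamer at 206 to 213, all on the other strand. The Cr2 window matched the E box CAGGTG at 163 to 168 and the MYB form at 169 to 174, again on the other strand. Among 32851 mouse promoter windows 1.74% held the octamer, 9.35% the ETS core, 20.2% CAGGTG and 28.3% a MYB form. Of 13 genes looked at, 9 had an entry (not Cd93, Akap12, Cecr2 and Cd24a), and the octamer was found in 1 of these 9. A match is a description of letters and not a bound site.

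Outside the rule's own genes, members were higher in some named markers of immature B cells. Vpreb3 stood at 438 CPM in ALLO members and 503 CPM in SYN members, against 203 and 280 CPM in other B cells. That made 2.16 times the level of other B cells in ALLO (1.95 to 2.39) and 1.80 times in SYN (1.64 to 1.97). Both member levels lay above both other B cell levels. Cd24a, the glycoprotein that marks early B cells, was at 722 and 628 CPM against 386 and 393 CPM, a ratio of 1.87 (1.73 to 2.02) and 1.60 (1.47 to 1.73). Among cells of 3000 to 6000 UMIs the Cd24a log2 ratio in SYN was 0.52, under 1.5-fold.

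To compare how many cells carried these genes, each cell was thinned to 1000 UMIs. Vpreb3 was then seen in 27.6% of ALLO members (60.5% before thinning) and 18.1% of other B cells (40.5%). In SYN it was seen in 30.1% of members (65.8%) and 23.2% of other B cells (46.3%). T cells, which should lack Vpreb3 and had median depths of 4224.5 and 4139 UMIs, gave 0.270% in ALLO and 0.245% in SYN after thinning, so the shares of both B cell groups lay above this background.

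A list of 20 genes of immature B cells outside the rule was read next. Of these, 12 had at least 30 UMIs over members and other B cells in each library. A gene was called when its ratio passed 1.5-fold in the same direction in both libraries. Among all 10542 genes so measured, 478 were called higher (4.53%) and 508 lower (4.82%), and the median log2 ratio was 0.04 in ALLO and 0.07 in SYN. The calls did not use the interval of the ratio, so they include genes within counting error. A gene with 0 UMIs in members counted as lower. With at least 100 UMIs per gene, 286 were called higher and 267 lower. The calls of the lists below have the same limit. From the list 6 of 12 were called higher and 0 lower, with a median log2 ratio of 1.09 in ALLO and 0.43 in SYN. Since the list and the members were both chosen with these data known, this is a description.

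Besides Vpreb3 and Cd24a, the higher genes were Myb, Lef1, Tifa and Atp1b1. Myb, a transcription factor of progenitors (chr10:21124935-21160984, minus strand), was at 28.7 CPM in ALLO members and 38.5 in SYN members, against 2.51 and 4.02 CPM. Its ratios of 11.4 (6.97 to 18.4) and 9.58 (6.36 to 14.2) rested on 28 UMIs in 19 cells and 40 UMIs in 21 cells, so the transcript was seen in under 10% of members. Lef1, a Wnt pathway transcription factor, was 6.55 (4.30 to 9.75) and 3.40 (2.35 to 4.81) times the level of other B cells, and Tifa, an adaptor for TRAF6, 3.07 (2.15 to 4.29) and 3.54 (2.43 to 5.03) times. Atp1b1, a sodium pump subunit, was 3.30 (2.42 to 4.43) and 1.82 (1.30 to 2.48) times as high. Lef1 and Myb were not particular to B cells. After thinning, Lef1 was seen in 30.5% and 35.2% of T cells, against 2.63% and 2.57% of members. Myb was seen in 2.36% and 2.01% of T cells, against 2.63% and 2.94% of members. Tifa was seen in 0% of T cells in both libraries, against 3.07% and 2.21% of members. Marcks, Tspan13, Cnn3 and Chchd10 lay within 1.23-fold of other B cells in both libraries. Spn and Il7r differed in direction between the libraries, Spn at a ratio of 2.09 in ALLO and 0.629 in SYN, Il7r at 2.71 and 0.557 on 4 UMIs each.

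Genes of the earlier pre-B stage were at or near 0. Rag2, Vpreb1, Vpreb2, Igll1, Dntt and Erg had 0 UMIs in all 500 members, Kit had 0 and 1, and Rag1, a recombinase of receptor gene rearrangement, had 2 UMIs in ALLO members and 0 in SYN. The label of transitional B cells is that of the rule, with 6 of 12 measured immature genes outside it called higher. The label was not tested, since members and list were chosen with these data known.

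Among the 12 highest genes by the interval bound nearest to 1, taken in the library where that bound was weaker, were Myb, Rgs13, Agbl1, Mki67, Hist1h2ak, Serinc5, Wfdc21, Mgst1, Nrgn, Rasd1 and Cplx2. Rgs13, a brake on signalling through G protein-coupled receptors, was at 18.4 and 24.1 CPM against 1.75 and 1.82 CPM, ratios of 10.5 (5.65 to 19.0) and 13.2 (7.56 to 22.8), from 10 and 11 cells. Agbl1, a carboxypeptidase of the tubulin-deglutamylating family, was at 20.5 and 28.9 CPM against 2.08 and 2.73 CPM. These 20 and 30 UMIs came from 18 and 24 cells. Serinc5, a membrane protein, was 4.86 (3.23 to 7.13) and 4.64 (3.19 to 6.60) times as high, and Mgst1, a glutathione transferase, 5.29 and 4.34 times, each spread over at least 20 cells a library.

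Others of the 12 rested on few cells. Nrgn, a calmodulin-binding protein, gave 49 UMIs in 12 ALLO cells, 16 of them in 1 cell, and 40 UMIs in 10 SYN cells, 21 of them in 1 cell. Wfdc21 gave 15 of its 39 SYN UMIs in 1 cell. Rasd1, a Ras-like protein, was 3.94 and 6.10 times as high but turned to a log2 ratio of -1.70 in ALLO among cells of 3000 to 6000 UMIs and to -0.017 with a transitional sum of at least 3. Hist1h2ak, a replication-dependent histone, turned to -0.30 in ALLO among cells of 3000 to 6000 UMIs.

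**Figure D2:**
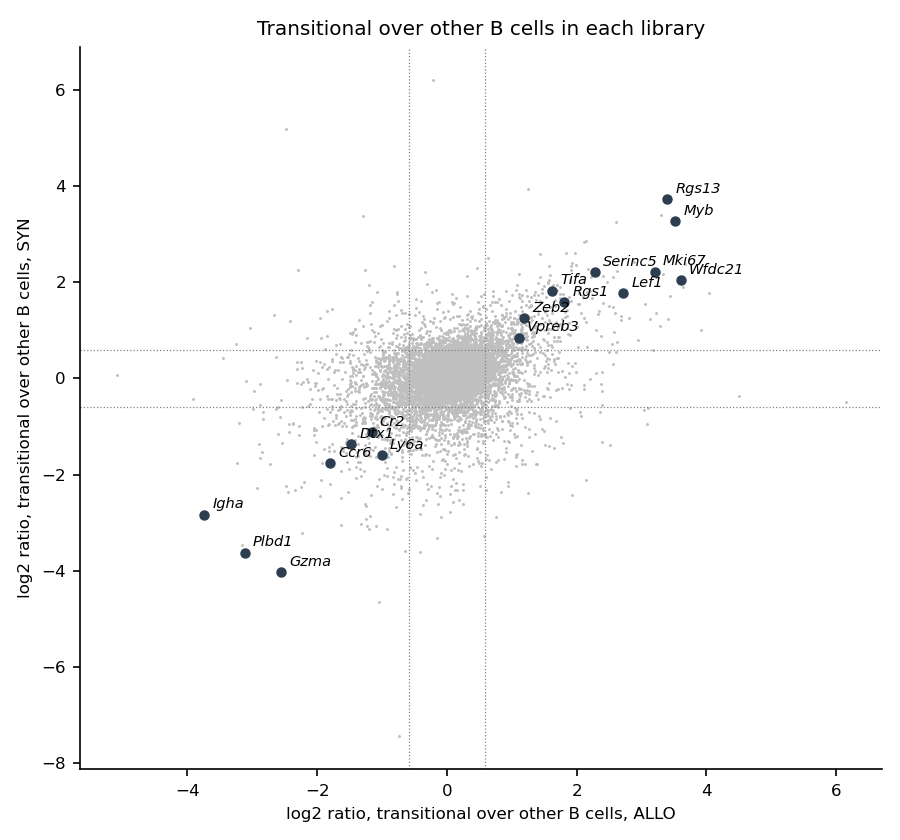
Log2 ratio of members to other B cells in ALLO (x axis) and SYN (y axis) for the genes with at least 30 UMIs in each library, each point 1 gene, with genes of the rule and genes at 0 UMIs left out and dotted lines at 1.5-fold. Myb and Rgs13 sit far up to the right, and Plbd1, Ccr6, Cr2 and Dtx1 to the lower left.

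Some genes of mature B cells were lower in members, while others, given below, were not. Cr2, complement receptor CD21, was at 161 CPM in ALLO members and 158 in SYN members, against 360 and 341 CPM. It was 2.24-fold (1.91 to 2.64) and 2.16-fold (1.85 to 2.54) lower, and a UMI of Cr2 was seen after thinning in 13.6% and 13.2% of members (34.2% and 35.3% before) against 24.3% and 23.5% of other B cells (52.2% and 48.1%). T cells gave 0.472% and 0.736%. Both member levels lay below both other B cell levels.

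Other B cells hold marginal zone cells, in which Cr2 and Notch2 targets are high, and the rule kept such cells out of the members. With the same marginal zone limit put on other B cells (5147 and 4994 cells), Cr2 stayed lower by 0.88 in ALLO and 0.81 in SYN on the log2 scale (log2 ratios of -0.88 and -0.81). Dtx1, a Notch target, was at 39.9 and 48.1 CPM against 111 and 123 CPM, 2.78-fold (2.02 to 3.91) and 2.56-fold (1.94 to 3.46) lower. With the limit its log2 ratios were -1.0 and -0.84, so both genes were lower with and without the limit.

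Ccr6, the receptor for CCL20, was at 24.6 and 21.2 CPM against 85.9 and 71.5 CPM, 3.50-fold (2.34 to 5.47) and 3.38-fold (2.22 to 5.41) lower. Plbd1, a phospholipase B-like protein, gave only 4 and 3 UMIs in all members and was 8.69-fold (3.38 to 32.0) and 12.3-fold (4.19 to 59.8) lower. Ly6a, the surface protein Sca-1, was 2.01-fold (1.75 to 2.31) and 3.0-fold (2.53 to 3.59) lower, at 218 and 129 CPM. Fxyd5, Gimap4 and Traf1 were lower by 2.54-, 2.08- and 3.50-fold in ALLO and 3.33-, 2.29- and 4.57-fold in SYN. With the marginal zone limit on other B cells, Ccr6 stood at log2 ratios of -1.82 and -1.75 and Ly6a at -0.84 and -1.38.

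The rest of the 12 lowest genes were at a few UMIs. Pdcd1lg2, the PD-1 ligand of memory B cells, had 3 UMIs in ALLO members, a ratio of 0.131 (0.0270 to 0.386), and 5 in SYN. Pde8a, a cyclic AMP phosphodiesterase, had 0 UMIs in both and was at least 2.36-fold lower in ALLO and 2.45-fold lower in SYN against a floor of 3 counts over the group. St6galnac3, a sialyltransferase, had 0 UMIs in ALLO, at least 5.02-fold lower by the same floor, and 3 UMIs in SYN. Gzma, a granzyme of cytotoxic cells, was 5.91-fold (2.52 to 18.3) and 16.3-fold (5.56 to 79.1) lower, with log2 ratios of -0.64 in ALLO and -2.58 in SYN once Scrublet doublets were removed. The 8 natural killer cell markers summed to 20.5 and 6.74 CPM in members against 60.6 and 109 CPM in other B cells, with 2 and 3 of the 8 at 0 in members. The part of such transcripts in the Gzma difference was not tested.

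Genes of the mature follicular state differed gene by gene. Of 15 measured, 0 were called higher and 2 lower, Cr2 and Gpr183, with medians of -0.16 in ALLO and -0.03 in SYN on the log2 scale. Gpr183, the oxysterol receptor that guides B cells to the outer follicle, was at 67.6 and 64.5 CPM against 137 and 110 CPM. Fcer2a was at 459 and 555 CPM against 530 and 533 CPM, within 1.16-fold in both libraries. Ighd was at 468 and 518 CPM against 505 and 508 CPM. Fcer2a and Ighd thus lay near the level of other B cells in the members as a whole.

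The members were not uniform in these genes. Splitting the members by a UMI of Fcer2a, a split chosen after values were seen, gave 77 ALLO and 94 SYN members without one (median 3306 and 3050 UMIs) and 151 and 178 with one (3670 and 3614.5 UMIs). Vpreb3 was at 717 CPM (629 to 815) without Fcer2a and 297 (256 to 342) with it in ALLO, and at 739 (649 to 839) and 396 (351 to 445) in SYN. Other B cells under the marginal zone limit showed no such step for Vpreb3: 214 and 226 CPM in ALLO, 308 and 314 in SYN.

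The same split ordered other genes of maturation. Cd24a was at 1030 CPM without Fcer2a and 565 with it in ALLO, and at 912 and 500 in SYN. Cr2 had the opposite order, with 69.9 CPM (44.3 to 105) without Fcer2a and 207 (173 to 245) with it in ALLO. In SYN it was at 92.4 (62.3 to 132) and 187 (157 to 222). Other B cells without Fcer2a held 276 and 246 CPM of Cr2, so members of either kind lay below them.

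Ccr6 had 0 UMIs in ALLO members without Fcer2a and 2 in SYN, against 24 and 20 in members with it. H2-Aa was at 3186 and 2889 CPM without Fcer2a and at 5312 and 4840 CPM with it. Myb was at 45.6 and 86.2 CPM without Fcer2a and at 20.1 and 16.8 CPM with it, with intervals that overlapped in ALLO only. Ighd was at 307 and 431 CPM without Fcer2a and at 550 and 557 CPM with it. In each of these 7 genes the order was the same in both libraries. Several had the same order in other B cells under the marginal zone limit: Myb at 4.47 CPM without Fcer2a and 1.4 with it in ALLO and at 9.03 and 2.03 in SYN, Ighd at 477 and 576 in ALLO and 457 and 585 in SYN, and Ccr6 at 73.3 and 90.9 in ALLO and 50.4 and 78.2 in SYN. The order by Fcer2a is therefore not particular to members, and the difference in its size was not tested.

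**Figure D3:**
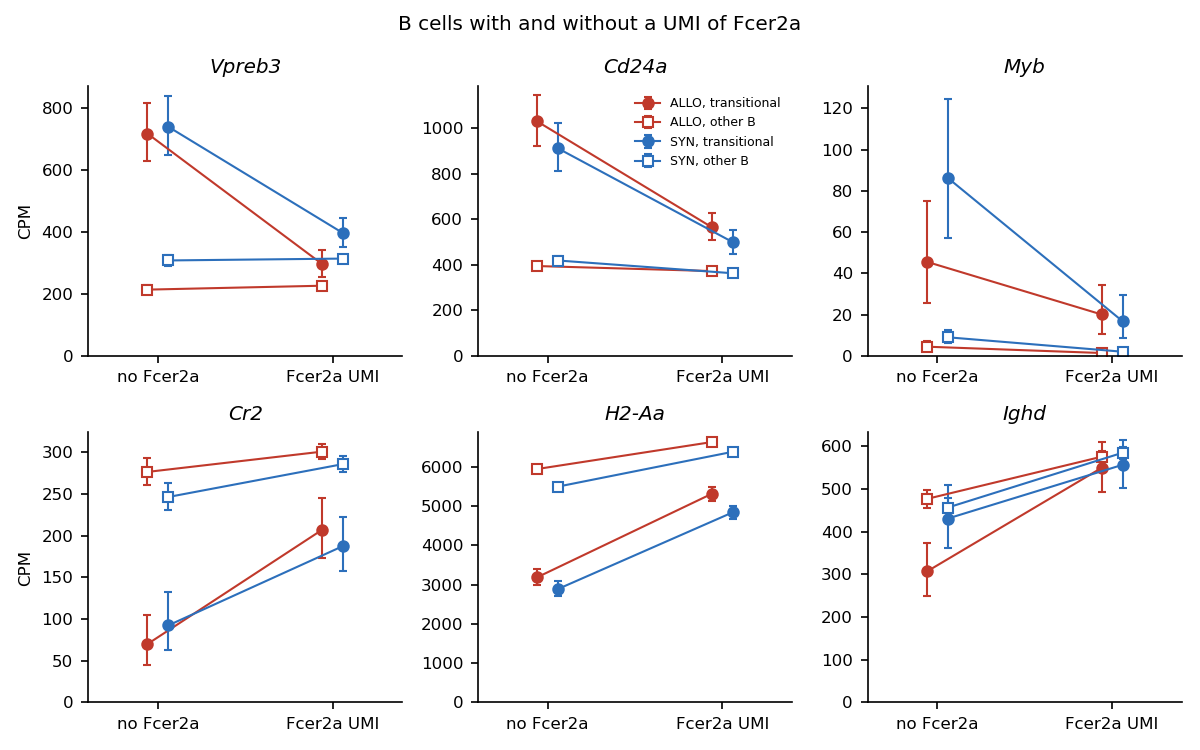
Levels (CPM of summed UMIs, exact 95% Poisson intervals) in members (filled) and in other B cells under the marginal zone limit (open), each split by a UMI of Fcer2a, for ALLO (red) and SYN (blue). Vpreb3 in ALLO lies at 717 CPM in members without a UMI of Fcer2a and 297 CPM in members with one, while other B cells stay at 214 and 226 CPM.

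Myb levels differed with the way in which a member met the rule, with intervals that overlapped in ALLO only. Members with UMIs of at least 2 of the 4 genes held 37.5 CPM of it in ALLO (24.0 to 55.8) and 60.0 in SYN (42.0 to 83.0). Members with 1 gene held 11.9 (3.2 to 30.4) and 9.1 (2.5 to 23.3), from 4 UMIs in each library. Members with at least 2 genes were also deeper, with medians of 3885 against 3319 UMIs in ALLO and 3498 against 3349 in SYN. The part of depth was not tested. Vpreb3 did not follow this order in ALLO, at 413 CPM with at least 2 genes and 487 with 1, while in SYN it was at 575 and 406.

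The heavy chain transcripts of members were mostly of IgM and IgD. Ighm, the mu constant region, was at 2764 CPM in ALLO members and 1899 in SYN members, against 1236 and 1254 CPM. In ALLO 1106 of its 2699 UMIs sat in 1 cell and in SYN 343 of 1974. Without antibody-secreting cells in either group the ratio to other B cells was 1.4 in ALLO and 1.35 in SYN in place of 2.24 and 1.52, and among cells of 3000 to 6000 UMIs 1.47 and 1.32, so the 1.5-fold call was lost. Among cells with at least 5 UMIs of Ighm and Ighd, 189 ALLO and 216 SYN members, the median share of Ighd was 20%, against 28.6% in other B cells of both libraries.

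Of 6 measured heavy chain genes, 1 was called higher (Ighm) and 3 lower (Igha, Ighg2c and Ighg3). Igha was at 14.3 and 14.4 CPM against 192 and 102 CPM, 13.4-fold (7.99 to 24.6) and 7.10-fold (4.29 to 12.7) lower. Ighg1 and Ighg3 had 0 UMIs in ALLO members and 2 each in SYN, Ighg2c had 0 and 1, and Ighe 0 in both. Ighg2b had 0 UMIs in ALLO and 16 in SYN, 15 of them in 1 cell. A switched cell, with at least 3 UMIs of a switched class and at least 2 times as many as of Ighm and Ighd, occurred in 0 of 228 ALLO members, which allows a share of up to 1.60% (exact Clopper-Pearson), and in 1 of 272 SYN members (0.368%), against 0.695% and 0.60% of other B cells. The difference was not detectable at this depth.

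The lambda share of light chain calls was higher in members, with intervals that overlapped in ALLO and not in SYN. The calls were made without thinning, and members were the deeper cells. By variable segments, 17 of the ALLO members were lambda and 199 kappa, a lambda share of 7.87% (4.65 to 12.3), against 4.39% (3.87 to 4.96) in other B cells. In SYN it was 7.51% (4.58 to 11.5), from 19 lambda and 234 kappa cells, against 3.89% (3.39 to 4.44). Of the 4 light chain constant genes, Iglc1 was called higher, 3.19-fold (2.93 to 3.47) in ALLO and 2.19-fold (2.0 to 2.39) in SYN. Iglc2 was 1.62 and 1.45 times, Iglc3 1.08 and 1.07 times and Igkc 1.30 and 1.01 times the level of other B cells, and 604 of the 1816 Igkc UMIs of ALLO members lay in 1 cell. Iglc2 and Iglc3 are near-identical copies, so reads may be split between them.

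Of 32 measured transcription factors of the B lineage, 5 were called higher and 0 lower, against 4.53% and 4.82% of all genes. Their median log2 ratios were 0.24 and 0.19, beside 0.04 and 0.07 over all genes. Spib, an ETS factor, was at 319 and 312 CPM against 161 and 182 CPM, and Tcf3, which encodes E2A, at 217 and 220 against 134 and 145 CPM. Zeb2, a zinc finger repressor needed in early B cells, was 2.27 (1.87 to 2.73) and 2.37 (1.98 to 2.83) times as high. The calls of Sox5 and Prdm1 rested on only 5 or 6 UMIs a library. Bach2, which holds back antibody secretion, was 1.45 and 1.48 times and Pou2af1 1.54 and 1.43 times as high, close to the threshold, and Pax5 and Ebf1 lay within 1.28-fold.

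Survival genes gave no common direction. Of 15 measured genes of BAFF signalling and survival, 1 was called higher and 0 lower. Tnfrsf13c, the BAFF receptor, was at 378 and 377 CPM against 285 and 340 CPM. Pim2, a survival kinase downstream of BAFF, was 1.61 (1.20 to 2.11) and 1.90 (1.46 to 2.45) times as high, with a log2 ratio of 0.31 in ALLO among cells of 3000 to 6000 UMIs. Mcl1 was at 698 and 780 CPM against 487 and 522 CPM, 1.43 and 1.5 times as high, and Bcl2 was 1.29 times in ALLO and 0.979 times in SYN. Of 13 death genes, Bmf was called higher on 12 and 13 UMIs, and Pmaip1, which encodes NOXA, lower, 1.77-fold (1.08 to 3.12) and 3.85-fold (1.63 to 11.9).

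Antigen receptor signalling genes stayed near the level of other B cells, with medians of 0.04 and 0.17 over 24 genes and 1 called, Cr2, lower. Of 15 inhibitory receptors and phosphatases, 2 were called higher and 2 lower. Cd72, a C-type lectin that dampens receptor signals, was at 404 and 414 CPM against 261 and 264 CPM, 1.54 (1.39 to 1.71) and 1.56 (1.41 to 1.73) times. Among cells of 3000 to 6000 UMIs the Cd72 log2 ratio in ALLO was 0.43, under 1.5-fold. Cd5 was called on 6 and 7 UMIs, and Lilrb4a had 0 UMIs in both libraries, at least 1.97-fold and 1.80-fold lower. Among 15 genes that respond early to the receptor, Egr1 was the only one called: 162 and 292 CPM against 96.5 and 96.6 CPM. In ALLO its log2 ratio was 0.34 with UMIs of at least 2 of the 4 genes, which ends the call.

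Of 18 chemokine receptor, adhesion and migration genes, 2 were called higher (Rgs1 and Rgs2) and 3 lower (Ccr6, Gpr183 and Itgb7), against 4.53% and 4.82% of all genes. The values of the single genes are a description and the count is small. Rgs2, a regulator of G protein signalling, was at 179 and 161 CPM against 74.5 and 52.6 CPM, and Rgs1 at 92.2 and 55.8 against 26.4 and 18.6 CPM. Itgb7, an integrin chain for gut homing, was 1.84-fold and 1.72-fold lower. Ccr7, which draws cells to the T cell zone, was 1.27 (1.11 to 1.44) and 1.47 (1.30 to 1.66) times as high.

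The list of MHC class II and costimulation genes leaned lower, with medians of -0.43 and -0.47 over 15 genes (-0.40 and -0.42 with genes at 0 set at their bound). Over all genes the medians were 0.04 and 0.07. Only H2-Eb2 and Cd80 passed 1.5-fold. H2-Aa was 1.35-fold (1.31 to 1.39) and 1.4-fold (1.36 to 1.44) lower, H2-Ab1 1.32- and 1.34-fold, H2-Eb1 1.43- and 1.42-fold, and Cd74, the invariant chain, 1.20-fold in both. H2-Eb2, close in sequence to H2-Eb1, was at 60.4 and 50.0 CPM against 112 and 113 CPM.

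**Figure D4:**
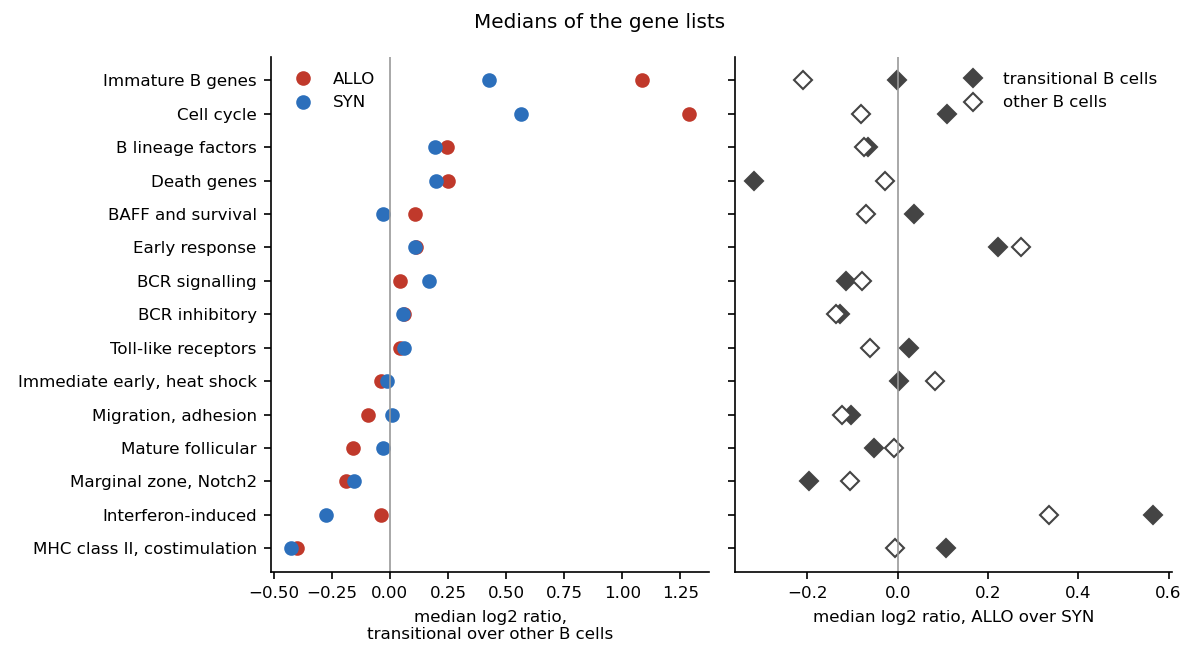
Median log2 ratio for each gene list, of members to other B cells in ALLO and SYN (left), and of ALLO to SYN in members and other B cells (right). Genes at 0 are set at their bound in the left panel only, and each panel has a line at 0. The immature list lies at 1.09 in ALLO and 0.43 in SYN, and MHC class II with costimulation at -0.40 and -0.42.

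Further lists are read against the shares over all genes, 4.53% higher and 4.82% lower. Of 15 marginal zone and Notch2 genes, 0 were higher and 2 lower (Dtx1 and Asb2), with medians of -0.19 and -0.15. Of 12 genes of B1 and memory cells, 1 was higher and 4 lower (Cd80, Pdcd1lg2, Tbx21 and Cxcr3). Their medians were -0.38 in ALLO and -0.78 in SYN, with 3 and 2 genes at 0. With genes at 0 set at their bound the medians were 0.15 and -0.25, so the sign in ALLO depended on this choice. In these counts the marginal zone limit was on members and not on other B cells. With the limit on both, 394 of all genes were called lower in place of 508. Of 19 interferon-induced genes, 0 were higher and 2 lower, with medians of -0.08 and -0.27. Of 16 immediate early and heat shock genes, 0 were higher and Hspa1b lower, and of 13 toll-like receptor genes 1 was higher (Tlr2, on 9 and 10 UMIs) and 1 lower. Counts of 1 or 2 genes are not read as a result about a list.

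Cell cycle genes were higher in the summed counts: 9 of 21 were called higher and 0 lower, against 4.53% and 4.82% of all genes. Their medians were 1.29 and 0.56. Mki67, a nuclear protein of dividing cells, was at 74.8 and 68.3 CPM against 8.14 and 14.7 CPM, but its 73 and 71 UMIs lay in 7 and 8 cells. Cells with at least 3 UMIs of 8 mitotic genes were 5 of 228 in ALLO (2.19%, 0.716 to 5.04) and 6 of 272 in SYN (2.21%, 0.814 to 4.74), against 0.678% and 0.971% of other B cells. Without such cells in either group Mki67 turned to a log2 ratio of -0.20 in ALLO and stood at 0.22 in SYN, Top2a turned to -0.13 in ALLO, and Stmn1 turned to -0.26 in SYN. The higher level of Mki67 thus lay in a few cells, while Myb stood at log2 ratios of 3.26 and 2.65 without them.

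Markers of other cell types were summed over the members. T cell markers summed to 34.8 and 34.6 CPM against 35.9 and 67.7 CPM in other B cells, with 5 and 3 of 12 at 0. Myeloid markers summed to 32.8 and 38.5 CPM against 27.8 and 60.2 CPM, with 7 of 12 at 0 in each, and erythroid markers to 27.7 and 29.8 CPM against 36.0 and 46.2 CPM. Neutrophil markers summed to 8.19 and 0.962 CPM against 6.34 and 411 CPM, so the SYN comparison group carried neutrophil transcripts that its members did not; their part in the SYN ratios was not tested. Dendritic cell markers summed to 5.12 and 0.962 CPM against 5.16 and 7.02 CPM, and platelet markers to 0 and 0.962 CPM against 0.284 and 0.321 CPM. Plasma cell markers summed to 2229 CPM in ALLO members, above the 873 CPM of other B cells, and to 702 CPM in SYN members, below the 765 CPM there. Of the ALLO sum, 1459 UMIs were Jchain in 1 cell. Cells with at least 3 UMIs of Jchain, Sdc1 and Slpi were 2 of 228 ALLO members (0.877%, 0.106 to 3.13) and 3 of 272 SYN members (1.10%, 0.228 to 3.19), against 0.542% and 0.583% of other B cells. The doublet caller Scrublet marked 1 ALLO member and 0 SYN members.

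The graft comparison asks whether the skin of HLA-transgenic donors changed these cells. Members were 3.29% (2.88 to 3.74) of B cells in ALLO and 4.02% (3.57 to 4.52) in SYN, a ratio of 0.818 (0.683 to 0.979). As a share of all cells that passed the depth and mitochondrial limits, they were 2.33% (2.04 to 2.65) and 2.43% (2.15 to 2.73), a ratio of 0.959, whose interval included 1. When only barcodes of at least 2000 UMIs were kept and thinned to 2000 UMIs before the rule, members were 1.78% of 6284 B cells in ALLO. In SYN they were 2.51% of 5767 B cells. The share among B cells was lower in ALLO, also after thinning, while the ratio over all cells was not told apart from 1. Stricter rules gave ratios among B cells whose intervals included 1. They were 0.873 (0.644 to 1.18) with a transitional sum of at least 3, and 0.912 (0.719 to 1.15) with UMIs of at least 2 different genes.

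Vpreb3 was 1.15-fold (1.01 to 1.31) lower in ALLO members than in SYN members, a smaller distance than in other B cells, where the ALLO over SYN ratio was 0.725. Cd24a was 1.15 (1.03 to 1.28) times as high in ALLO, and Cr2 1.02 (0.813 to 1.28) times. Of 10 immature genes with at least 30 UMIs over the members of both libraries, 0 were higher or lower by 1.5-fold, with a median log2 ratio of 0.00 against -0.21 in other B cells. Other genes that set members apart from other B cells did differ: Egr1 and Ly6a were among them, and Rgs1 was at 92.2 and 55.8 CPM, 1.65 (1.17 to 2.34) times as high in ALLO members, beside 1.42 in other B cells.

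Among all 6910 genes so measured, 310 were at least 1.5-fold higher in ALLO members (4.49%) and 634 lower (9.18%), and the median log2 ratio was -0.10. These counts used the ratio without its interval, so they include genes within counting error. With at least 100 UMIs per gene they were 48 and 118. The 12 genes highest by the bound nearest to 1 were Jchain, Slpi, Cdk5rap1, Ube2c, Ccnd2, Nfkbid, Ifi27l2a, Eaf2, Lars2, Cenpf, Cdca3 and Ly6a. Several of these came from 1 cell. Jchain, which links IgM and IgA into polymers, gave 1463 UMIs in ALLO and 220 in SYN members, a ratio of 7.08 (6.14 to 8.19), but 1 ALLO cell of 24193 UMIs held 1459 of them and 1 SYN cell 211. Without the highest cell of each library the ratio was 0.473. The same ALLO cell held 31 of the 33 Slpi UMIs and 1106 of the Ighm UMIs.

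Nfkbid, a nuclear inhibitor of NF-kB, was at 186 and 88.5 CPM, but 80 of its 182 ALLO UMIs lay in 1 cell. Its ratio was 2.11 (1.63 to 2.74), and 1.37 without the highest cell of each library. Its log2 ratio turned to -0.66 among cells of 3000 to 6000 UMIs and to -0.10 at a transitional sum of at least 3, so the direction depended on these settings. Eaf2, an elongation factor partner, had a ratio of 2.52, and 1.12 without those cells. Ube2c, Cenpf and Cdca3, genes of mitosis, were seen in 2 to 5 cells a library. The Prg2 difference in the other direction, 19.3-fold, rested on 1 SYN cell with all 41 UMIs.

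Other genes were spread over many cells. Ccnd2, a D cyclin, was at 115 CPM in ALLO members and 50.0 in SYN members, 2.29 (1.64 to 3.25) times, in 58 and 36 cells, while in other B cells the ratio was 0.963. Ifi27l2a, an interferon-induced gene, was at 735 and 416 CPM, 1.77 (1.57 to 2.0) times, beside 1.4 in other B cells. Ly6a was at 218 and 129 CPM, 1.69 (1.36 to 2.12) times, beside 1.13, with a log2 ratio of 0.44 without the marginal zone limit. Lars2, the mitochondrial leucyl-tRNA synthetase, was 1.53 (1.44 to 1.63) times beside 1.34, and Cdk5rap1 6.56 (2.75 to 19.0) times beside 6.34. The Cdk5rap1 difference was thus of nearly the same size in other B cells.

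Interferon-induced genes leaned higher in ALLO members, with a median log2 ratio of 0.56 over 10 genes beside 0.33 for the same genes in other B cells. Of the 10, 4 were at least 1.5-fold higher (Irf7, Ifi27l2a, Zbp1 and Xaf1) and 0 lower, against 4.49% and 9.18% of all genes. Only Ifi27l2a among these 4 had an interval that left out 1.

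The 12 genes lowest in ALLO members were Prg2, Ccdc61, Egr1, Ncbp2, Washc4, Pias4, Pot1b, Pcgf6, Rnpep, Aqr, Mprip and Trappc8. Egr1, an early gene of antigen receptor signals, was at 162 CPM in 48 ALLO cells and 292 CPM in 71 SYN cells, 1.80-fold (1.48 to 2.20) lower, while other B cells had a ratio of 0.999. Nr4a1, another early gene, was at 37.9 and 64.5 CPM, 1.70-fold (1.12 to 2.62) lower, but 18 of its 67 SYN UMIs lay in 1 cell and other B cells went the other way at 1.38. Of 12 early response genes, 2 were higher in ALLO members (Myc and Nfkbid, the latter mostly in 1 cell and reversed under 2 alternatives) and 2 lower (Egr1 and Nr4a1), so the list had no common direction. Myc was 1.75 (1.25 to 2.46) times beside 1.34 in other B cells, with a log2 ratio of 0.26 among cells of 3000 to 6000 UMIs.

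Zfp318, which promotes IgD over IgM by splicing, was at 160 and 266 CPM, 1.66-fold (1.36 to 2.04) lower in ALLO members, beside a ratio of 0.798 in other B cells. Without the marginal zone limit its log2 ratio was -0.48. Ighd itself was 1.11-fold (0.975 to 1.26) lower, within counting error. Ccdc61 was 3.91-fold (1.57 to 11.7) and Washc4 2.21-fold (1.43 to 3.49) lower, beside ratios of 1.01 and 0.941. Aqr was 2.29-fold lower, with a log2 ratio of -0.22 at a transitional sum of at least 3, and Trappc8 was 2.37-fold lower, beside 0.934 and 1.04. In the lists, 0 of 15 mature follicular genes were higher and 1 lower in ALLO, and 1 of 29 B lineage factors higher and 1 lower. Of 14 MHC class II and costimulation genes, 1 was higher and 0 lower. Shares near the background of 4.49% and 9.18% are not a result about those lists.

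**Figure D5:**
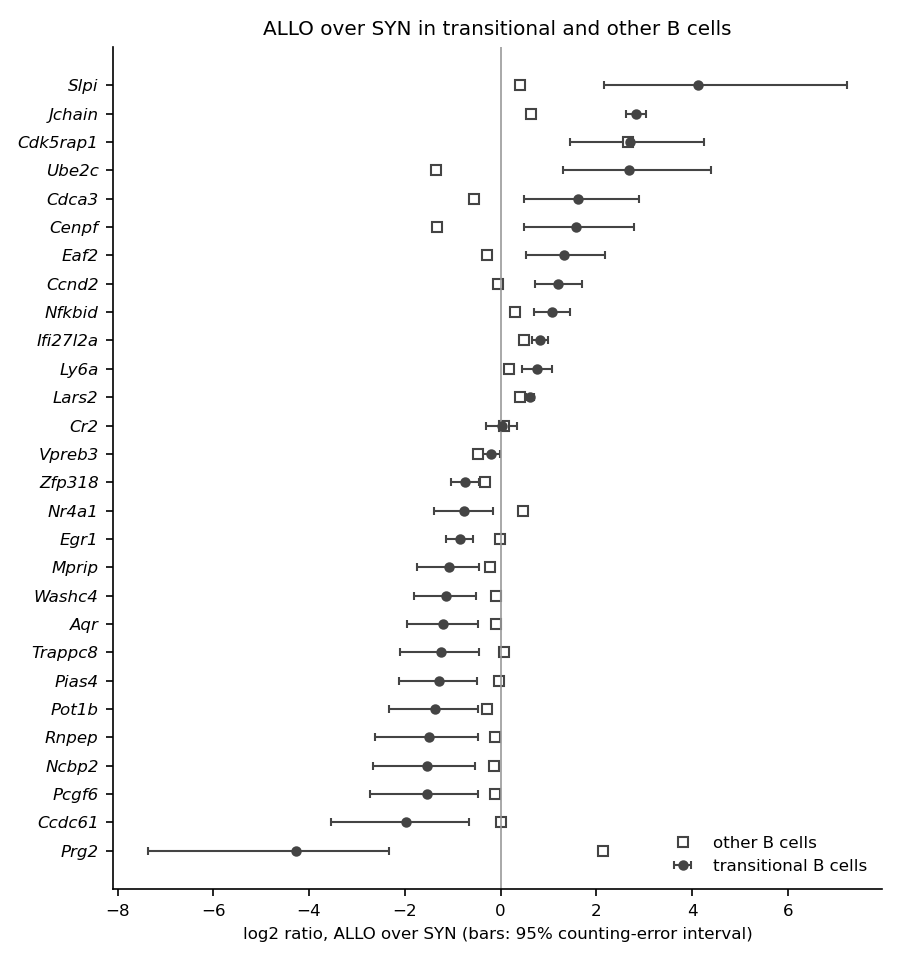
Log2 ratio of ALLO to SYN for named genes in members (filled, with exact 95% intervals) and in other B cells (open); 0 is no difference. As a ratio, Ccnd2 is at 2.29 in members and 0.963 in other B cells, and Egr1 is 1.80-fold lower in members with a ratio of 0.999 in other B cells.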

How the data were processed

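Deposited raw UMI counts of 2 libraries were used (10x Chromium 5′ v2, per the labels' protocols). Cell Ranger 6.0.2 made them, per the file headers, on mm10 with a FastQC check, per the submitters' processing notes. Aligner options: not given in the sources used here. In the files the smallest deposited barcode held 500 UMIs. Barcodes under 1000 UMIs (1259 in ALLO, 6510 in SYN) and over 10% mitochondrial UMIs (134, 69) were left out. Doublets were called with Scrublet in scanpy 1.11.5 (2.22% and 4.56% of cells) and kept. UMIs were summed over cells and given per 1000000 (numpy 2.4.6, scipy 1.17.1, pandas 2.3.3, matplotlib 3.10.9). Shares have Clopper-Pearson, sums Poisson and ratios conditional binomial 95% intervals, for counting error only, since UMIs of 1 cell are not independent. Genes needed 30 UMIs. The 12 genes named each way were those whose interval bound nearest to 1 was farthest from it, leaving out genes of the rule, receptor segments, mitochondrial, ribosomal protein and predicted genes; list members and the 1-cell genes are named beside them. Results of a few genes are not reported here. The calculation was tested on simulated data. Members, gene lists and tests were chosen with earlier results of these data known.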

Additional observations from a re-analysis of the deposited data

Results flagged for a closer look

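For 4 genes named in the text or by the naming rule, members lay above other B cells in one library and below them in the other, each interval leaving out 1. The ratio of members to other B cells was 0.635 in ALLO and 1.36 in SYN for Aqr, an RNA helicase of splicing. It was 0.568 and 1.33 for Nr4a1 and 0.630 and 1.31 for Washc4, a WASH complex subunit. For Nfkbid it was 1.29 and 0.755, with 80 of 182 ALLO UMIs in 1 cell. The differences between the libraries were not tested.

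Barcodes under 1000 UMIs were outside every comparison. Of 272 such ALLO barcodes that met the B cell limits, 5 also met the transitional and marginal zone limits (1.84%, 0.599 to 4.24). In SYN 6 of 2148 did (0.279%).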

How the results depend on the processing

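No paired analysis was possible because each group was 1 library. Leaving out a replicate was not possible for the same reason. The ALLO over SYN ratio of the share of B cells lay between 0.708 and 0.912 under the alternatives run with B cells as denominator, and was 0.959 with all cells past the depth and mitochondrial limits as denominator. With a transitional sum of at least 3, 767 genes were called lower in members. With at least 100 UMIs per gene, 286 were called higher and 267 lower in members, and 48 higher and 118 lower in ALLO members; with at least 10 UMIs, 795 lower in members, and 751 higher and 1204 lower in ALLO. Fewer or more genes were measured in these settings.

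For named genes, 2300 of 2555 recomputed ratios of members to other B cells stayed within the interval of the main ratio. A further 248 left it and 7 reversed, counting a reversal only where the main ratio was at least 1.5-fold in either direction. A change of sign from a smaller main ratio was not counted, as for Mki67 in ALLO over SYN, from a log2 ratio of 0.13 to -3.60 at the lowest. For ALLO over SYN the counts were 1220 of 1304, 75 and 9. For list medians they were 646 of 677, 26 and 5, and for ALLO over SYN 239 of 247, 8 and 0. Reversed log2 ratios of members to other B cells in ALLO were, at a sum of at least 3, -0.017 for Rasd1; among cells of 3000 to 6000 UMIs, -0.30 for Hist1h2ak, -1.70 for Rasd1 and -0.42 for Top2a; and without mitotic cells, a filter added after seeing the data, -0.20 for Mki67 and -0.13 for Top2a. Without mitotic cells Stmn1 stood at -0.26 in SYN. The ALLO over SYN ratio of Nfkbid was -0.10 at a sum of at least 3 and -0.66 among cells of 3000 to 6000 UMIs, where Hspa1a was at -0.32. Without the marginal zone limit Jchain was at -0.53, Slpi at -0.32 and Rrm2 at 0.11. Jchain was at -0.21 without antibody-secreting cells, -6.82 with UMIs of at least 2 different genes and -1.08 without the highest cell of each library, 3 alternatives added after seeing the data. The ALLO median of myeloid markers was 0.58 at a sum of at least 3 and without the marginal zone limit, and that of plasma cell markers -0.22 among cells of 3000 to 6000 UMIs, -0.10 without secreting cells and -0.33 with at least 2 genes. Where no cell count is given above, the cause was not tested. Genes seen in few members, such as Myb, Rgs13 and Il7r, are limited by depth.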
